A study of Anas platyrhynchos with 3 samples.

Results

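The genes described here encode the metalloproteases that cut the extracellular matrix and cell-surface proteins, and their tissue inhibitors, and were measured in the bill skin of Pekin ducks. They were taken by symbol from the gene table as every row named MMP, TIMP, ADAM, ADAMTS or ADAMTSL followed by a number. The rule found 40 of 14938 genes, namely 3 TIMP, 8 MMP, 10 ADAM, 16 ADAMTS and 3 ADAMTSL genes. Embryos of embryonic day 24 to 26 were used, which had pierced the inner membrane of the shell and would hatch within 24 to 48 hours. Their eggs were kept at 37 °C. There was 1 group with 3 biological replicates and no second genotype, treatment or age. Poly(A) RNA was sequenced to 32247700, 30630039 and 25268141 counted reads in replicates 1, 2 and 3.

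Matrix metalloproteases (MMPs) are zinc enzymes that cut collagens, gelatin, laminins and other matrix proteins, some of them secreted and others held at the cell membrane. ADAM proteins are membrane-anchored and mostly shed other membrane proteins from the cell surface, whereas ADAMTS enzymes are secreted and act on proteoglycans, procollagens and microfibrils. ADAMTS-like proteins (ADAMTSL) share the non-catalytic modules of the ADAMTS enzymes but have no protease domain. TIMPs bind the active site of these enzymes, and most of the enzymes are made as inactive precursors, so a transcript level is not an enzyme activity.

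Markers of the main skin cell types were present. All 14 keratinocyte markers measured, led by SFN, and all 11 fibroblast markers measured, led by COL1A2, reached 1 FPKM, a level scaled to gene length and library depth, in all 3 libraries. Of 14 leukocyte markers measured, 10 were under that minimum. In the summed marker levels replicate 2 stood apart, with fibroblast markers at 2823, 5107 and 2962 FPKM and keratinocyte markers at 5548, 4669 and 5342 FPKM in replicates 1, 2 and 3. These are values of whole skin, so fewer cells of a type and less RNA per cell cannot be told apart. Means are given ± SD with n = 3.

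Of the 40 genes, the highest level was that of an inhibitor, TIMP3. The protease gene MMP2, which fell outside the rule and is described below, was higher than TIMP3 in every library. TIMP3, which unlike the other TIMPs binds to the matrix and also inhibits ADAM17 and several ADAMTS enzymes, had 109, 216 and 139 FPKM in replicates 1, 2 and 3, from 8489, 16455 and 8798 reads. Its mean of 154.7 ± 55.1 FPKM placed it at rank 438 of all genes in the table. TIMP2, which inhibits MMPs and also takes part in the activation of MMP2 at the cell surface, had 86.3, 105.0 and 64.1 FPKM, with a mean of 85.1 ± 20.5. The ranges of TIMP3 and TIMP2 did not overlap. TIMP4, an inhibitor known for a narrow tissue range in mammals, was far lower at 2.70, 4.58 and 1.18 FPKM. TIMP3 carried 55.1, 66.3 and 68.1% of the summed TIMP level, and TIMP2 most of the rest. TIMP1 was not analysed here.

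The counted part of a gene bears on these levels. The length implied by count and FPKM was 719 bases for TIMP2, the shortest of the 40 genes, 2468 bases for TIMP3 and 3031 bases for TIMP4, against a median of 4367 bases. In the table of duck genes for the assembly IASCAAS_PekinDuck_T2T, TIMP3 overlaps the synapsin gene SYN3 and TIMP4 overlaps SYN2. SYN3 was at 0.425, 0.426 and 0.312 FPKM, far below TIMP3. SYN2 was at 1.81, 2.68 and 1.81 FPKM, close to TIMP4. Only the start and end of each gene were compared, not exons, so whether overlapping genes share counted bases was not tested. The libraries kept strand, but no source used here says whether the counting used it. The level of TIMP4 is uncertain to that extent.

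Among the MMP genes MMP15, which encodes a membrane-type MMP that cuts pericellular matrix, stood alone. It had 60.6, 55.6 and 58.2 FPKM, a mean of 58.1 ± 2.52, and made up 80.8, 77.9 and 79.8% of the summed level of the 8 MMP genes. It also varied little, with a coefficient of variation of 4.33%. The next was MMP28 (epilysin), a secreted MMP made by keratinocytes in mammals, at 5.31, 4.62 and 4.79 FPKM, and no library of MMP28 reached any of MMP15. Below it lay a group of membrane-bound MMPs within 1 order of size. MMP17, held by a lipid anchor, was at 2.44 ± 0.314 FPKM and MMP16, a transmembrane MMP, at 2.29 ± 0.0757. MMP23B, which lacks the hemopexin domain, was at 2.15 ± 0.638 and MMP24, a transmembrane MMP known from neurons, at 2.01 ± 0.306. Neighbours in this order from MMP17 to MMP9 had overlapping ranges, so their order is not fixed by these libraries.

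The secreted gelatinase gene MMP9 and the matrilysin gene MMP7 were the lowest of the MMP genes. MMP9 had 0.987, 1.89 and 0.529 FPKM from 62, 116 and 27 reads. Its highest library was 3.56-fold above its lowest, and markers of leukocytes, some of which store MMP9 in mammals, summed to 19.3, 36.6 and 22.8 FPKM in the same libraries. MMP9 and this sum were highest in replicate 2, as were the summed markers of fibroblasts and of several other cell types. MMP9 was lowest in replicate 3, whereas the leukocyte sum was lowest in replicate 1. Single leukocyte markers went both ways. PTPRC, CSF1R, CD3E, IKZF1, C1QA and C1QB, all under the minimum, were lowest in replicate 3. The other leukocyte markers measured, including all 4 that passed the minimum, were lowest in replicate 1. The part of leukocytes or of any other cell type in the level of MMP9 was not tested. MMP7, which cuts a wide range of substrates in mammalian epithelia, had 2, 1 and 1 reads. The exact Poisson 95% interval was 0.242 to 7.22 reads for replicate 1, and the mean of 0.0379 FPKM lay under the 0.0988 FPKM that 3 reads make at the lowest depth. MMP7 was thus at the detection limit.

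A gelatinase far higher than MMP9 was listed by gene number and so fell outside the rule. The row LOC101802059, which the gene table names MMP2, had 154.8, 262.5 and 142.4 FPKM, a mean of 186.6 ± 66.0, from 9355, 15533 and 6990 reads. MMP2 cuts gelatin and type IV collagen and is typically made by stromal cells. With it and LOC101803448 (MMP11, at 3.78, 3.62 and 2.72 FPKM) included, MMP2 held 66.3, 77.8 and 65.3% of the summed MMP level. MMP15 then held 25.9, 16.5 and 26.7%. MMP9 was 0.00637, 0.00718 and 0.00372 times MMP2. MMP14, which activates MMP2, was sought for planned ratios. No row was found under its symbol or a gene number paired with it, so it was not analysed here.

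**Figure D1:**
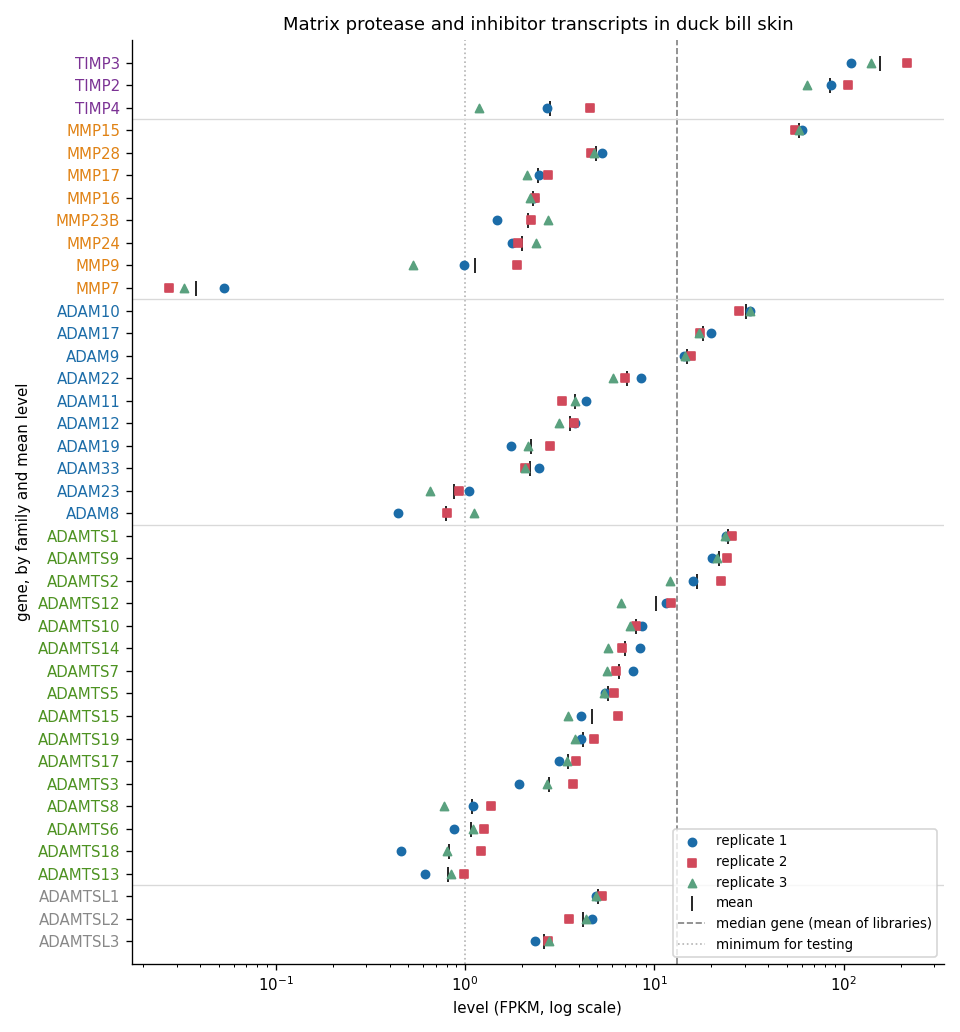
Level of each of the 40 genes in FPKM on a log axis, grouped by family and ordered by mean, with 1 point per library and a bar at the mean. TIMP3, TIMP2 and MMP15 stood to the right of all others, and MMP7 lay at 0.0379 FPKM on average.

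The ratio of summed TIMP to summed MMP levels depended on whether MMP2 was counted. TIMP1 and MMP14 are in neither sum, so the ratio covers only the genes named here. The 3 TIMP genes summed to 198.0, 325.4 and 204.4 FPKM and the 8 MMP genes to 75.0, 71.3 and 73.0 FPKM, a ratio of 2.64, 4.56 and 2.80. The MMP sum differed little between libraries while the TIMP sum was highest in replicate 2. With MMP2 and MMP11 added, the MMP sum was 233.6, 337.4 and 218.1 FPKM and the ratio 0.848, 0.964 and 0.937. That ratio had a coefficient of variation of 6.66%, against 32.0% without the added genes. TIMP2 alone was 0.557, 0.400 and 0.450 times MMP2, the enzyme with which it forms a complex, and so lower than MMP2 in every library.

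**Figure D2:**
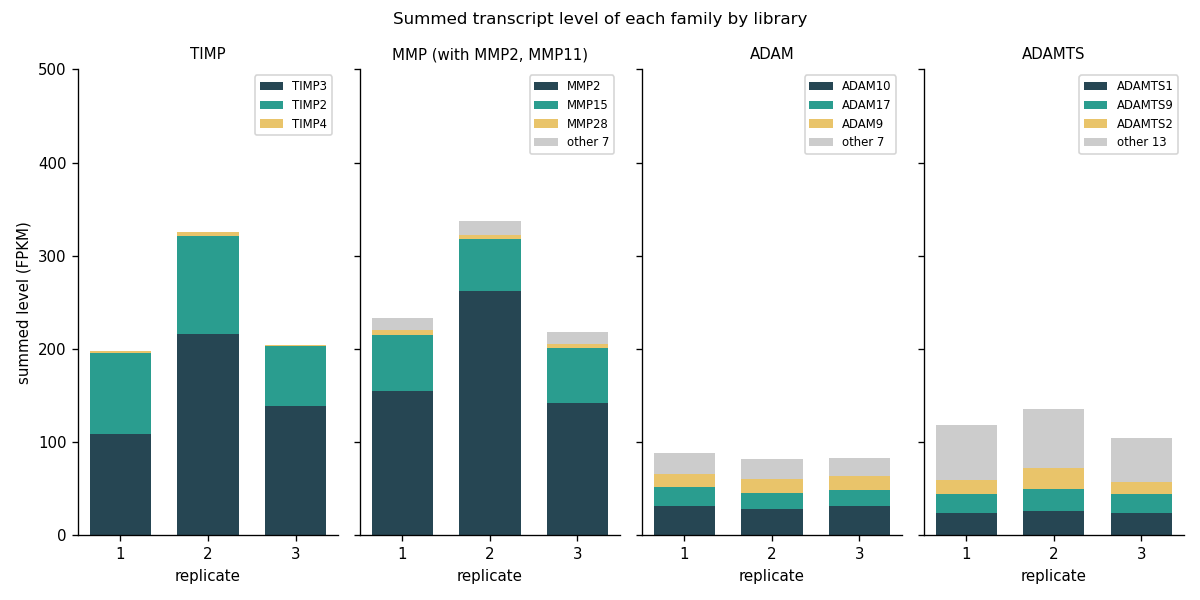
Summed level in FPKM of the TIMP, MMP, ADAM and ADAMTS genes in each library, as stacked bars from 0, with the highest 3 genes of each family in colour and the others in grey; MMP2 and MMP11 are included in the MMP bars. The TIMP bars (198.0, 325.4 and 204.4 FPKM) and the MMP bars (233.6, 337.4 and 218.1 FPKM) were tallest in replicate 2, and the ADAM bars (88.6, 81.6 and 82.7 FPKM) were not.

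The ADAM family was led by its widely used sheddases. ADAM10, which releases Notch and E-cadherin ectodomains, had 32.0, 28.0 and 31.9 FPKM, a mean of 30.7 ± 2.28. ADAM17, which sheds TNF and most EGF receptor ligands, had 19.8, 17.4 and 17.3 FPKM, a mean of 18.2 ± 1.44. ADAM9, a sheddase of broad expression, had 14.4, 15.6 and 14.5 FPKM, a mean of 14.8 ± 0.657. The ranges of these genes did not overlap, and ADAM17 was 0.619, 0.620 and 0.542 times ADAM10. Together they held most of the family, ADAM10 with 36.1, 34.3 and 38.6% of the summed ADAM level, ADAM17 with 22.4, 21.3 and 20.9% and ADAM9 with 16.2, 19.1 and 17.5%. In the gene table ADAM17 overlaps IAH1, which was at 21.5, 18.6 and 15.3 FPKM. Here too only start and end were compared, and whether these genes share counted bases was not tested. The level of ADAM17 is uncertain to that extent.

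The other ADAM genes were lower. ADAM22, ADAM11 and ADAM23 encode proteins without a working protease that serve in neurons and glia as receptors of LGI proteins. ADAM22 was at 8.55, 6.97 and 6.06 FPKM, ADAM11 at 4.35, 3.27 and 3.80 and ADAM23 at 1.05, 0.932 and 0.657. ADAM22 was the fourth-highest ADAM gene, and its range lay above that of ADAM11, which lay above that of ADAM23. Of their ligands, LGI2 was at 2.22 ± 0.335 FPKM, LGI1 at 1.22 ± 0.273 and LGI3 at 0.0643 ± 0.0360. The catalytic ADAM12 was at 3.58 ± 0.381 FPKM, ADAM19 at 2.24 ± 0.544 and ADAM33 at 2.21 ± 0.214, all above ADAM23 in every library; ADAM12 and ADAM19 are known from developing muscle, bone and heart. ADAM8, known from leukocytes, had 0.442, 0.804 and 1.12 FPKM, highest in replicate 3, whereas the summed leukocyte markers were highest in replicate 2. Of the 4 leukocyte markers that passed the minimum, 3 were highest in replicate 2 and 1, LAPTM5, in replicate 3.

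Of the ADAMTS genes, those for the versican-cleaving enzymes ADAMTS1 and ADAMTS9 were the highest by the rows that carry a symbol. ADAMTS1 had 24.0, 25.8 and 23.6 FPKM, a mean of 24.5 ± 1.15. ADAMTS9 had 20.1, 24.1 and 21.3 FPKM, a mean of 21.8 ± 2.05, and overlapped the range of ADAMTS1. ADAMTS5, which cuts aggrecan and versican, was lower at 5.49, 6.13 and 5.42 FPKM. ADAMTS15, of the same proteoglycan-cleaving group, was at 4.69 ± 1.57 FPKM and ADAMTS8 at 1.08 ± 0.297. Their substrate VCAN (versican) was at 18.0 ± 3.51 FPKM and ACAN (aggrecan) at 1.52 ± 0.809.

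ADAMTS9 is listed in 2 rows. LOC101793886 carries the gene number that the gene table pairs with ADAMTS9, and it had 12.5, 13.7 and 11.9 FPKM beside the row with the symbol. Joining the reads and lengths of both rows gave 16.0, 18.5 and 16.2 FPKM, a mean of 16.9 ± 1.37. If both rows are parts of one gene, ADAMTS9 would be lower than ADAMTS1 in every library and would overlap the range of ADAMTS2, which was higher in replicate 2. ADAMTS20, the closest relative of ADAMTS9, was also listed by number as LOC101801774, at 1.36 ± 0.00485 FPKM. Its coefficient of variation of 0.355% lay under the 6.24% that counting alone would give, so this SD understates the uncertainty of its level.

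The procollagen N-propeptidases trim the amino end of fibrillar procollagens. ADAMTS2 had 15.9, 22.4 and 12.1 FPKM, ADAMTS14 had 8.44, 6.79 and 5.71 and ADAMTS3, which also processes the lymphatic growth factor VEGFC, had 1.94, 3.72 and 2.70. ADAMTS2 was the highest of them in every library. ADAMTS14 was 0.530, 0.303 and 0.472 times ADAMTS2, and ADAMTS3 0.122, 0.166 and 0.223 times ADAMTS2. They did not share their order across libraries, since ADAMTS2 and ADAMTS3 were highest in replicate 2 and ADAMTS14 in replicate 1.

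The other ADAMTS genes ran from intermediate to low levels. ADAMTS12 and ADAMTS7, which both carry a mucin-like domain and cut COMP, were at 10.2 ± 3.07 and 6.55 ± 1.05 FPKM. COMP itself was at 11.2 ± 3.2 FPKM. ADAMTS10 and ADAMTS17, which act on fibrillin microfibrils, were at 7.99 ± 0.552 and 3.48 ± 0.361 FPKM, and FBN1 (fibrillin) was at 27.5 ± 4.41. ADAMTS19 was at 4.22 ± 0.509 FPKM, ADAMTS6 at 1.08 ± 0.195 and ADAMTS18 at 0.827 ± 0.378. In the gene table the span of ADAMTS18 overlaps that of NUDT7, which was far higher at 9.11, 11.4 and 12.8 FPKM. Whether they share counted bases was not tested, so the level of ADAMTS18 is uncertain to that extent. ADAMTS13, the liver-made enzyme that cuts von Willebrand factor, was at 0.817 ± 0.190 FPKM, and VWF at 11.0 ± 1.76. The ADAMTS-like genes were close together, with ADAMTSL1 at 5.06 ± 0.188 FPKM, ADAMTSL2, which binds fibrillin microfibrils, at 4.21 ± 0.581 and ADAMTSL3 at 2.62 ± 0.243. Of the 35 pairs of neighbours in the order within a family, 21 had overlapping ranges, so only the broad order is fixed by these libraries.

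Some of these genes lie side by side in the gene table, which was used only for names and neighbours. ADAMTS1 and ADAMTS5 have 0 protein-coding genes between them, as do ADAMTS8 and ADAMTS15. ADAMTS5 was 0.229, 0.238 and 0.229 times ADAMTS1, with a coefficient of variation of 2.25%, the smallest of the ratios computed. Counting alone would give 1.87% for ADAMTS1 and 3.03% for ADAMTS5, so the spread of this ratio was no larger than counting error. Whether position bears on these levels was not tested. ADAMTS8 was 0.270, 0.212 and 0.221 times ADAMTS15, a pair chosen after its position was seen, with a coefficient of variation of 13.3%. All 40 genes were found in the table by symbol, and 4 of them, ADAMTS12, ADAMTS19, ADAMTS6 and ADAMTSL1, lie on the Z sex chromosome. Of these, ADAMTS12 was at 11.6, 12.3 and 6.63 FPKM and ADAMTS19 at 4.08, 4.79 and 3.80, both lowest in replicate 3. ADAMTS6, at 0.871, 1.26 and 1.11 FPKM, was lowest in replicate 1, and ADAMTSL1 was at 4.95, 5.27 and 4.95 FPKM. The sex of the embryos was not analysed here.

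To place the levels, each gene was compared with the median gene of its library, which lay at 13.3, 13.1 and 13.3 FPKM, among 10605 genes with at least 1 FPKM in every library. In limma's moderated test with Benjamini-Hochberg adjustment over these genes, 7 of the 40 genes were above the median gene, 22 were below it, 3 were not apart from it and 8 were under the minimum. The 8 were MMP7, MMP9, ADAM8, ADAM23, ADAMTS6, ADAMTS8, ADAMTS13 and ADAMTS18. Of all genes tested, 43.7% were above and 43.6% below. The 7 and 22 make up 21.9 and 68.8% of the 32 genes tested, which passed the minimum in part through their level. Over all 40 genes the median of the mean levels was 4.01 FPKM, against 6.94 FPKM over all 14938 genes of the table. Of the 40 genes, 10 averaged 10 FPKM or more, against 41.9% of all genes of the table.

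The genes above the median gene came from 4 families. TIMP3 was 11.1-fold above it (log2 3.48 ± 0.19 SE, limma adjusted p = 9.3e-06) and TIMP2 6.26-fold (2.65 ± 0.15 SE, adjusted p = 1.1e-05), in 3 of 3 libraries each. MMP15 was 4.36-fold above (log2 2.13 ± 0.09 SE, adjusted p = 3.2e-06). ADAM10 was 2.3-fold above (log2 1.20, adjusted p = 3.7e-05) and ADAM17 1.37-fold (log2 0.45, adjusted p = 0.0041). ADAMTS1 was 1.84-fold above (log2 0.88, adjusted p = 0.00015) and ADAMTS9 1.64-fold (log2 0.71, adjusted p = 0.00063). The latter holds for the ADAMTS9 row with the symbol only. The second ADAMTS9 row, LOC101793886, was not apart from the median gene (log2 -0.06, limma adjusted p = 0.56). Folds are on the log2(FPKM + 0.1) scale, which understates those of low genes. Each SE is limma's moderated one, which draws the spread of a gene toward that of all genes tested. The SD of log2 values over the libraries was 0.50 for TIMP3, 0.36 for TIMP2 and 0.06 for MMP15. MMP2, outside the rule, was 13.5-fold above (log2 3.75, adjusted p = 6.2e-06). A minimum of 5 FPKM raises the median gene, and with it ADAM17 (log2 -0.15, limma adjusted p = 0.15) and ADAMTS9 (log2 0.11, adjusted p = 0.28) were not above it.

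ADAM9, ADAMTS2 and ADAMTS12 were not apart from the median gene. ADAM9 was at log2 0.16 (limma adjusted p = 0.14), ADAMTS2 at 0.30 (adjusted p = 0.16) and ADAMTS12 at -0.43 (adjusted p = 0.071). For ADAMTS2 and ADAMTS12 a single library decided this. Without replicate 3 ADAMTS2 was above the median gene (log2 0.53, limma adjusted p = 0.026), and without replicate 2 ADAMTS12 was below it (log2 -0.58, adjusted p = 0.029). The minimum decided it as well. With none, ADAM9 (log2 0.96, limma adjusted p = 0.00037) and ADAMTS2 (log2 1.10, adjusted p = 0.0037) were above the median gene, as at a minimum of 0.1 FPKM, so that 9 genes were above in either case. With a minimum of 5 FPKM ADAMTS12 (log2 -1.03, adjusted p = 0.0015) and ADAM9 (log2 -0.44, adjusted p = 0.0021) were below it. Of the 22 genes below, ADAMTS10 was nearest (log2 -0.72, adjusted p = 0.00043) and MMP24 farthest (log2 -2.67, adjusted p = 3e-06). With low genes kept in, the median drops, and ADAMTS10 (log2 0.081, adjusted p = 0.45), ADAM22, ADAMTS14 and ADAMTS7 were not apart from it. TIMP4 was the only TIMP below it (log2 -2.38 ± 0.33 SE, adjusted p = 0.00065), as were all 3 ADAMTSL genes and 5 of the 8 MMP genes.

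**Figure D3:**
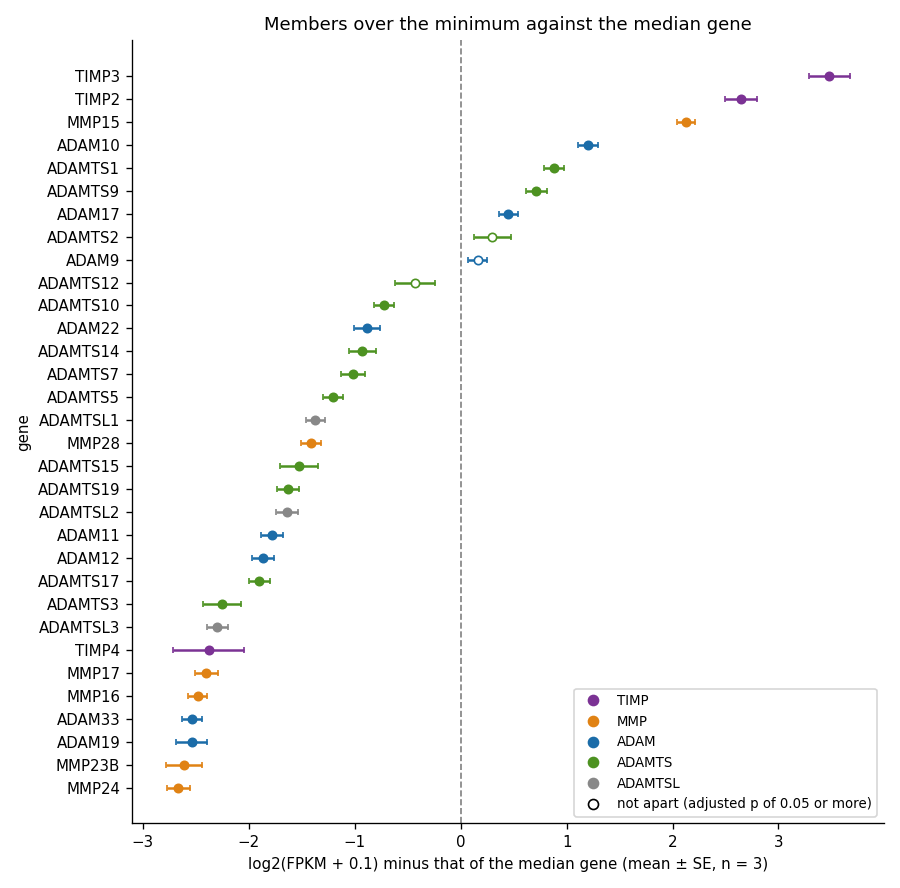
Difference of log2(FPKM + 0.1) between each of the 32 tested genes and the median gene of the library. Points are means over 3 libraries and bars are limma's moderated SE. Open points were not apart at an adjusted p of 0.05. TIMP3 lay at 3.48, MMP24 at -2.67, and 22 genes lay below the dashed line at 0 with a filled point.

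The genes tested differed in how steady they were between libraries. Their median coefficient of variation was 12.5%, against 11.7% for all genes tested, and ran from 3.31% for MMP16 to 60.3% for TIMP4. Counting alone would give 0.943 to 7.18% at these read numbers. The spread was more than 2 times that from counting in 27 of 32 genes, and in 77.8% of all genes tested; this ratio grows with read number. For MMP16, MMP28 and ADAMTSL1 it was near the counting error, at 0.73, 1.01 and 1.07 times it. For TIMP3, the most deeply counted, it was 37.8 times and for ADAMTS2 18.8 times the counting error.

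**Figure D4:**
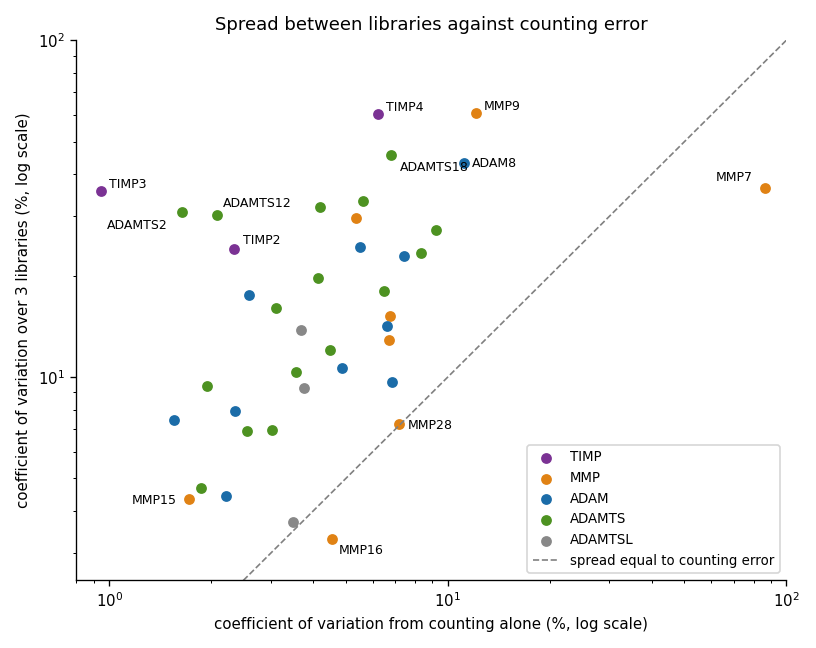
Coefficient of variation over 3 libraries against that expected from read numbers alone, both in percent on log axes, for all 40 genes coloured by family; the dashed line marks equal values. TIMP3 lay far above the line at 35.6%, MMP16 lay below it at 3.31%, and MMP7 lay below it with 86.6% expected from read numbers.

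Of the genes tested, the highest SDs of log2 values were those of TIMP4 (0.94), TIMP3 (0.50), ADAMTS12 (0.48), ADAMTS3 (0.45) and ADAMTS15 (0.45), all highest in replicate 2. Close below them were ADAMTS2 (0.44), highest in replicate 2, and MMP23B (0.43), highest in replicate 3. Under the minimum, MMP9 (0.83), ADAMTS18 (0.62) and ADAM8 (0.59) had SDs above that of TIMP3, and ADAM8 was highest in replicate 3. TIMP3 deviated from its own log2 mean by -0.45, 0.54 and -0.09, ADAMTS15 by -0.14, 0.50 and -0.36 and ADAMTS3 by -0.45, 0.45 and 0.00. TIMP4, with deviations of 0.127, 0.869 and -0.9965, and ADAMTS12, with 0.23, 0.32 and -0.56, lay farthest from their means in replicate 3, where they were lowest. Of the 32 genes tested, 17 were highest in replicate 2, 12 in replicate 1 and 3 in replicate 3, while 34% of all genes tested were highest in replicate 2, 33.1% in replicate 1 and 32.9% in replicate 3. These include all 3 TIMP genes and 9 of 12 ADAMTS genes, but 2 of 8 ADAM genes and 2 of 6 MMP genes. Lowest in replicate 3 were 16 genes, against 31% of all genes tested.

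Marker genes moved with the libraries too. Fibroblast markers deviated by a median of -0.20, 0.47 and -0.24 on the log2 scale, with 10 of 11 highest in replicate 2, and keratinocyte markers by 0.11, -0.20 and 0.04, with 13 of 14 lowest there. Cartilage and bone markers that passed the minimum deviated by -0.03, 0.41 and -0.46, with 6 of 7 highest in replicate 2, and their 13 measured genes summed to 116.2, 229.0 and 90.4 FPKM. Of the markers that passed the minimum, 4 of 4 of smooth muscle and pericytes, 3 of 4 of leukocytes and 6 of 9 of Schwann and lamellar cells were also highest in replicate 2. Endothelial markers deviated by 0.17, -0.02 and -0.14, with 8 of 12 highest in replicate 1 and 9 of 12 lowest in replicate 3. Of the 8 ADAM genes tested 6 were highest in replicate 1, against 33.1% of all genes tested. Of the 12 ADAMTS genes tested 9 were lowest in replicate 3, against 31% of all genes tested. Highest in replicate 2, as were 10 of 11 fibroblast markers, were 17 of the 32 genes tested (53.1%), against 34% of all genes tested. TIMP3, ADAMTS2, ADAMTS3 and ADAMTS15 were among the 17, and so were TIMP2, ADAM9, MMP16 and ADAMTS1. MMP2, outside the rule, deviated by -0.21, 0.55 and -0.33. ADAM10, ADAM11, MMP15, MMP28, ADAM33 and ADAMTSL2 were lowest in replicate 2, as were 13 of the 14 keratinocyte markers. These 6 genes make up 18.75% of the 32 genes tested, while 36.6% of all genes tested were lowest in that library. Their deviations in replicate 2 were -0.13, -0.21, -0.06, -0.08, -0.08 and -0.23. The part of cell make-up in these differences was not tested.

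**Figure D5:**
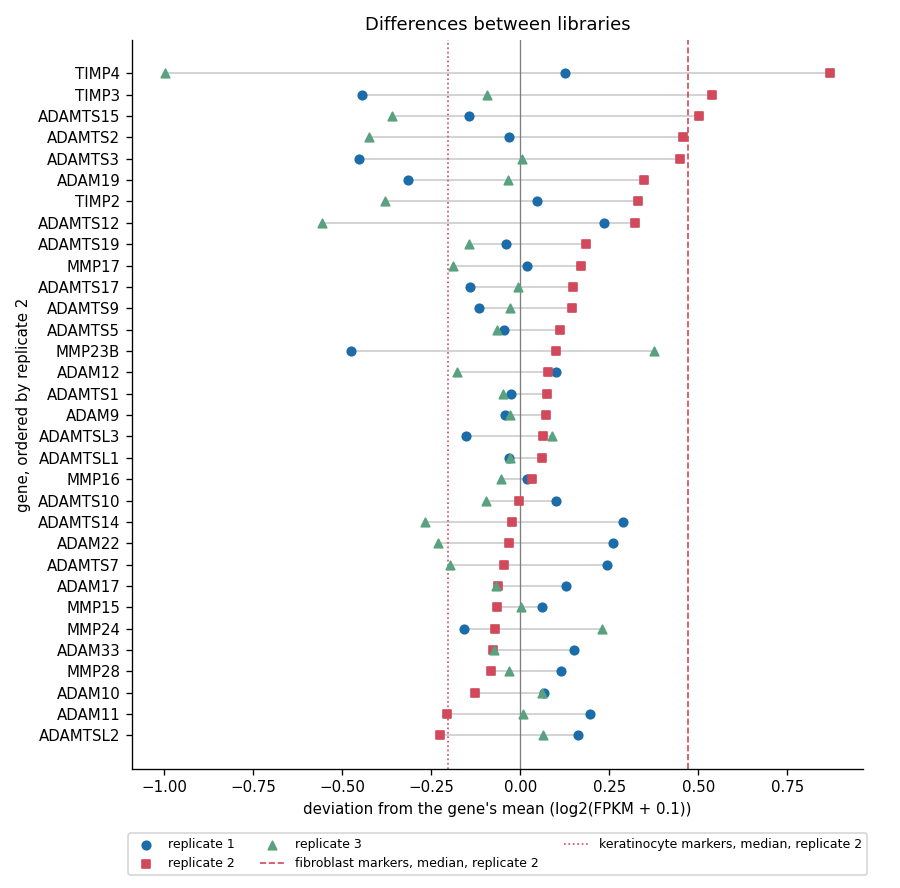
Deviation of each tested gene from its own mean in each library, in log2(FPKM + 0.1), ordered by replicate 2, with vertical lines at the median deviation of fibroblast (0.47) and keratinocyte (-0.20) markers in replicate 2. TIMP4, TIMP3, ADAMTS15, ADAMTS2 and ADAMTS3 lay farthest to the right in replicate 2, and ADAM11 and ADAMTSL2 farthest to the left.

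A list of inhibitors, serpins and clearance proteins outside the TIMP family was led by CSTB and SERPINB5. A place on this list does not mean that a serpin inhibits a protease. Of 12 genes of the list measured, 6 were above the median gene, 4 were below it and 2 were not apart from it. Among all genes tested, 43.7% were above and 43.6% below. Without replicate 2 and without replicate 3, the count of these 12 genes below it was 1. The highest were CSTB, an inhibitor of cysteine cathepsins, at 278.1 ± 11.0 FPKM and the serpin SERPINB5 (maspin) at 236.6 ± 26.2. SERPINE2, which blocks thrombin and plasminogen activators, was at 139.3 ± 44.2 FPKM and SERPINH1, a serpin that folds collagen and inhibits no protease, at 90.7 ± 17.4. RECK, the membrane-anchored MMP inhibitor, had 13.5, 16.4 and 10.9 FPKM and was not apart from the median gene (log2 0.02, limma adjusted p = 0.89), although it was above it without a minimum and below it with one of 5 FPKM. LRP1, which takes up TIMP3 and several of these enzymes, was below it (log2 -0.45, limma adjusted p = 0.02), but not without replicate 2 (adjusted p = 0.082) or 3 (adjusted p = 0.105).

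A list of convertases, serine proteases and other genes linked to protease activation held 12 measured genes. There, 2 were under the minimum. Of the 10 tested, 5 were above the median gene, 3 below and 2 not apart. Among all genes tested, 43.7% were above and 43.6% below. FURIN, the convertase that cuts the propeptide of membrane-type MMPs, ADAMs and ADAMTS enzymes, had 12.0, 9.97 and 12.0 FPKM and was not apart from the median gene (log2 -0.23, limma adjusted p = 0.067), although it was above it without a minimum and below it with one of 5 FPKM. PCSK7, a related convertase, was at 25.6 ± 2.03 FPKM. BSG, which induces MMPs in fibroblasts, led the list at 140.1 ± 24.0 FPKM, followed by the serine protease genes HTRA1 at 60.1 ± 7.42 and PRSS23 at 37.4 ± 10.4. PLAU, the urokinase gene, was at 23.6 ± 4.60 FPKM and PLG, the plasminogen gene made in liver, was under the minimum.

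Several proteases of other classes exceeded every protease of the 40 genes. Of 17 measured, 4 were under the minimum. Of the 13 tested, 7 were above the median gene, 5 below and 1 not apart. For this list and the next, the shares over all genes tested were 43.7% above and 43.6% below. The lysosomal cathepsin genes CTSD at 609.6 ± 52.6, CTSB at 154.3 ± 6.13 and CTSL at 112.2 ± 25.3 FPKM were higher than MMP15 in every library, and CTSZ was at 47.0 ± 4.57. MMP2, outside the rule, was at 186.6 ± 66.0 FPKM. It was below CTSD and above CTSL in every library, and above CTSB in replicate 2 only. BMP1, the procollagen C-propeptidase that works at the other end of procollagens from ADAMTS2, was listed by number and was at 25.0 ± 2.90 FPKM. Of 9 partners of ADAM10 and ADAM17 measured, 1 was under the minimum. Of the 8 tested, 4 were above, 3 below and 1 not apart. PDIA6, a disulfide isomerase that lowers ADAM17 activity, was at 106.6 ± 9.46 FPKM and MAD2L1, a mitotic protein that binds the ADAM17 tail, at 27.6 ± 5.70. TSPAN14, a tetraspanin that carries ADAM10, was at 24.6 ± 1.05 FPKM. The iRhom gene RHBDF1, whose protein brings ADAM17 to the cell surface, was at 23.3 ± 1.87 FPKM, above its relative RHBDF2 at 6.18 ± 0.323.

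Substrates were led by syndecan, collagen and proteoglycan genes. Of 27 ADAM substrates and ligands measured, 5 were under the minimum. Of the 22 tested, 10 were above the median gene, 9 below and 3 not apart. The membrane proteins SDC1 at 151.5 ± 12.6, APP at 132.1 ± 13.0, SDC4 at 99.5 ± 11.5 and CD44 at 87.3 ± 19.2 FPKM led them. Among the EGF receptor ligands shed by ADAM10 and ADAM17, HBEGF was at 14.8 ± 2.93 FPKM, BTC at 9.64 ± 1.38, AREG at 2.60 ± 0.753, TGFA at 2.03 ± 0.457 and EREG at 0.248 ± 0.0368. Of 24 MMP and ADAMTS substrates measured, 3 were under the minimum. Of the 21 tested, 15 were above, 4 below and 2 not apart. For both substrate lists, the shares over all genes tested were 43.7% above and 43.6% below. The fibrillar collagen genes COL1A2 at 1087 ± 430 and COL3A1 at 346.2 ± 110.0 FPKM and the proteoglycan genes DCN at 939.9 ± 345.8 and LUM at 364.6 ± 148.9 led the MMP and ADAMTS substrates. All 4 were highest in replicate 2.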

How the data were processed

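The deposited table holds raw counts for every gene, per the file headers, and beside them FPKM values of the authors for the same libraries. CASAVA 1.8.2, Trimmomatic 0.36 and STAR 2.5.4b, then featureCounts (Subread 1.6.2) and edgeR 3.22.3, are listed in the submitters' processing notes without roles. Genome build, annotation and strand setting: not given in the sources used here. Count and FPKM gave a whole-number length (within 0.01 bases) for 100% of 14343 genes with reads once TMM factors were applied, so FPKM carry TMM scaling.

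Of 3347 gene-number identifiers, 781 took a symbol from the gene table. Genes and lists were chosen with earlier results of these data known. All 40 genes may be named, with the 4 highest of each list of related genes; others named there were chosen after their values were seen. Limma 3.58.1 in R 4.3.3 tested log2(FPKM + 0.1) minus the library median, two-sided at an adjusted p of 0.05. Its p-values and SE rest on the spread between 3 biological replicates, drawn toward the spread of all genes tested. edgeR 4.0.16 and DESeq2 1.42.0 served the alternatives, with other pseudocounts, minimums, scaling and replicates left out. In simulated counts for 10605 genes, the limma test against the library median called 55% of genes at 1.25-fold and 95.2% at 1.5-fold. It called 4.2% of unchanged genes. Figures used Python 3.11.15 and matplotlib 3.10.9. Intervals cover counting error only.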

Additional observations from a re-analysis of the deposited data

How the results depend on the processing

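The 32 genes tested kept direction and call with a pseudocount of 1 or 0.01, with edgeR's quasi-likelihood test on counts and without replicate 1. Without replicate 2 or 3, 31 of 32 did. All 32 also kept them with DESeq2 size factors. The library median is subtracted in that test, so library scaling nearly cancels, and this agreement says nothing of stability. Another minimum moves the median gene itself. With a minimum of 5 FPKM, 15 of the genes were tested and 7 were below. ADAM17 was then at log2 -0.15 (limma adjusted p = 0.15), ADAM9 at -0.44 (adjusted p = 0.0021) and ADAMTS2 at -0.30 (adjusted p = 0.13), all reversed, and ADAMTS9 was not apart (0.11, adjusted p = 0.28). Without a minimum ADAMTS12 (log2 0.37, adjusted p = 0.14) and ADAMTS10 (0.081, adjusted p = 0.45) reversed; ADAM22, ADAMTS14 and ADAMTS7 were not apart. LRP1 (0.35, adjusted p = 0.073) and FURIN (0.57, adjusted p = 0.0042; 0.17 at a minimum of 0.1 FPKM) reversed too. RECK, at log2 0.02, was at -0.58 (adjusted p = 0.0042) at 5 FPKM and -0.11 to 0.19 with a replicate left out. The second ADAMTS9 row, at log2 -0.06, was at 0.74 without a minimum, 0.33 at 0.1 FPKM, and -0.11 to 0.0097 with a replicate left out.

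Of the lists, that of inhibitors, serpins and clearance proteins had 1 gene below at no minimum or 0.1 FPKM, and 1 to 3 with a replicate left out. Other proteases had 2 below at 5 FPKM. At 5 FPKM, 7, 8 and 0 genes were highest and 3, 2 and 10 lowest in replicates 1, 2 and 3; with no minimum, a setting added after seeing the data, 22 of 40 were highest in replicate 2. Means and sums moved by less than 1 SD under DESeq2 size factors. Ratios are taken within a library, where its scaling cancels, so this setting could not move them. Leaving out 1 of 3 values cannot move a mean by 1 SD, so it says nothing of the stability of means, sums or ratios. No paired analysis was possible because there is 1 group. Depth limits MMP7, with at most 2 reads.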
